A study of Homo sapiens with 12 samples.

Results

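The mRNAs of the pro-apoptotic BCL2 family were followed across 12 libraries of a lymphoma cell line, together with a pair of small features that lie opposite them. The set was a list of 10 gene names, all found once in both deposited tables, out of 60656 features listed there. It holds the BH3-only genes BMF, BCL2L11 (the gene of BIM), PMAIP1 (NOXA), BBC3 (PUMA), HRK and BID, the pore-forming effectors BAX and BAK1, the antisense RNA BMF-AS1 and the microRNA gene MIR3190. BMF-AS1 lies opposite BMF, and MIR3190 opposite BBC3. The cells were OCI-LY1, an established diffuse large B-cell lymphoma (DLBCL) line, and OCI-LY1R, a derivative selected by stepwise exposure to venetoclax, ending at 1 µM. Both lines received vehicle (DMSO) or 1 µM decitabine for 3 days, which gave 4 groups of 3 libraries of polyadenylated RNA: parental vehicle, parental decitabine, resistant vehicle and resistant decitabine. Whether the resistant line is a clone or a pool is not given in the sources used here, and nor is whether its cells were under venetoclax during the treatment.

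The BCL2 family decides whether mitochondria release the proteins that start apoptosis. BAX and BAK1 make pores in the outer mitochondrial membrane, survival proteins such as BCL2 and MCL1 hold them in check, and the BH3-only proteins answer to stress by binding the survival proteins or by activating BAX and BAK1 directly. Venetoclax is a small molecule that takes the place of a BH3-only protein in the groove of BCL2, so it sets free BIM and other partners that BCL2 had bound. Decitabine is a nucleoside analogue that traps DNA methyltransferases and so lowers DNA methylation, which was not measured here.

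Values are TPM, transcript levels scaled for feature length and to a fixed total in each library, so levels of different genes can be set side by side. TPM keep no read numbers, depth is therefore unknown, and an exact 0 means only that a feature is listed at 0. Parental decitabine replicate 3 stood apart from all other libraries: protein-coding features took 89.4% of its TPM against 26.6% to 32.2% in the other 11, and features annotated as antisense 0.298% against 34.9% to 48.7%. The libraries are labelled stranded, and whether strand was assigned alike in replicate 3 and in the other 11 was not tested. Replicate 3 is therefore given apart, and every test leaves it out unless stated. B-cell markers were in place: all 8 were above 1 TPM in replicate 3, and they summed to 494 to 1964 TPM in the other 11, mostly through CD37 (361 to 1908 TPM). Of the others, CD79A was at 3.39 to 8.74 TPM in the 11 and CD79B at 0 to 4.40 TPM. The 4 T-cell markers summed to at most 1.09 TPM in the 11, with CD3D, CD3E and CD2 at 0 throughout. The 4 myeloid markers summed to at most 1.39 TPM and the 3 fibroblast markers to at most 0.102 TPM. The 4 epithelial markers summed to 0 to 2.98 TPM in resistant vehicle and 1.77 to 22.4 TPM in resistant decitabine libraries, with KRT18 and CDH1 at 0 in all 11. Numbers name the parental libraries, and the letters a, b and c those of each resistant group. Whether replicates were separate cultures is not stated, so p-values reflect only how far these libraries differ, and that spread may be technical.

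The positions of BMF and BMF-AS1 decide how their values can be read. In GENCODE 29 (GRCh38) BMF spans chr15:40087890-40108892 on the minus strand and BMF-AS1 chr15:40088832-40089386 on the plus strand. All 461 exonic bases of BMF-AS1 lie inside the last exon of BMF, and all 461 fall in its 3′ UTR. The 284 and 177 bases of its exons were found, as reverse complement, at bases 3462 to 3745 and 3191 to 3367 of the 4687-base transcript BMF-201. BMF-AS1 therefore has no exonic base that is not also BMF sequence on the other strand, while only 8.46% of the exonic bases of BMF lie opposite BMF-AS1.

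**Figure D1:**
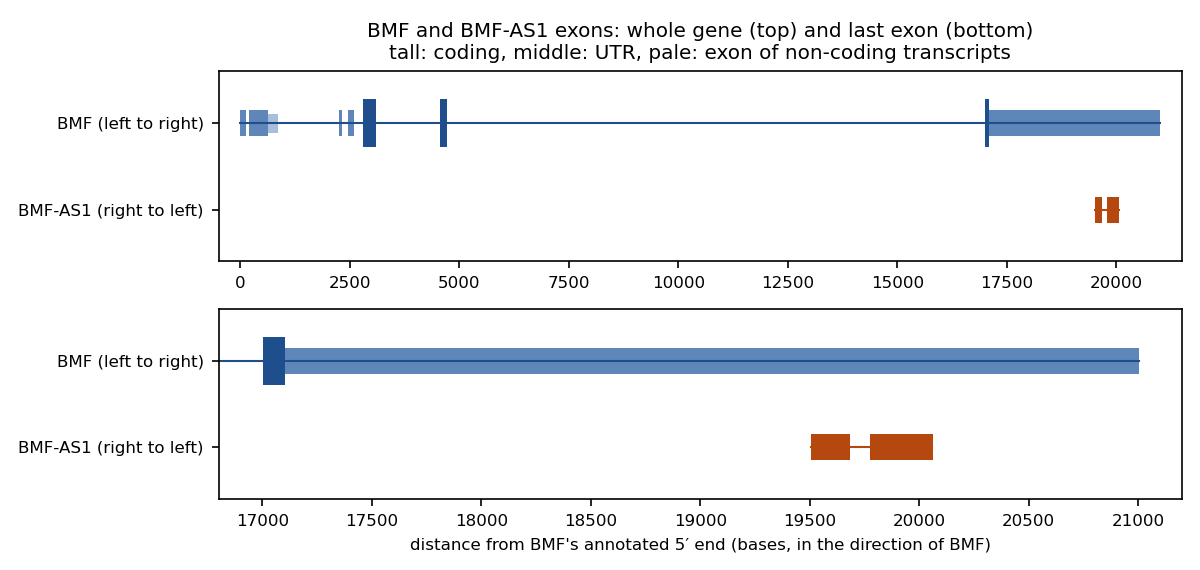
Exons of BMF and BMF-AS1 by distance in bases from the annotated 5′ end of BMF, for the whole gene (top) and its last exon (bottom). Tall blocks are coding, middle blocks UTR and pale blocks exons of non-coding transcripts, and both BMF-AS1 exons (284 and 177 bases) sit inside the 3′ UTR of BMF on the other strand.

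Upstream sequence is shown for BMF and HRK because BMF has starts of opposite CpG content and the decitabine and vehicle libraries did not overlap for HRK in either line, a choice made after these values were seen. CpG dinucleotides are where human DNA is mainly methylated. The sequences are from RefSeq (GRCh38.p14), cover the 250 bases before each start, read 5′ to 3′ on the strand of the gene, and have each CG in capitals.
BMF start 1, chr15:40108880-40109129, minus strand: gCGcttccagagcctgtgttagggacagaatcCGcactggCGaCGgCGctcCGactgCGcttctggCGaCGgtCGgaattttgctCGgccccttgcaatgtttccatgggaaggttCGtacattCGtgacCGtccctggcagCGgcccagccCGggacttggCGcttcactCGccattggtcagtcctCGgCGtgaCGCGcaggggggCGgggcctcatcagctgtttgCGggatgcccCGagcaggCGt
BMF start 2, chr15:40106967-40107216, minus strand: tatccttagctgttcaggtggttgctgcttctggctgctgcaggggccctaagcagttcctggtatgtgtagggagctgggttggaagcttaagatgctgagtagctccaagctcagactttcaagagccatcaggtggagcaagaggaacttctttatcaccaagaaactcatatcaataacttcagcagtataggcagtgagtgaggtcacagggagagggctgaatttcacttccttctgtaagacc
HRK, chr12:116881442-116881691, minus strand: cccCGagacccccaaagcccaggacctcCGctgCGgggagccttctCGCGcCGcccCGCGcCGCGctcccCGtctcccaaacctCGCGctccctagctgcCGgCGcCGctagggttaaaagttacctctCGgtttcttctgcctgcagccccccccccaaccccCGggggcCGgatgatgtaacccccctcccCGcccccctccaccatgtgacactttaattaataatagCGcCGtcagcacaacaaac
The first BMF window holds 26 CG and the second 0, and the HRK window holds 22. The median over 35116 such windows was 11 CG, and 19.6% of them had at least as many as the first BMF window. All 8 coding genes had an entry, 13 windows in all. The single windows of PMAIP1 (36 CG) and BCL2L11 (34) were the richest, and those of BAK1 (5) and BBC3 (4) among the poorest. TGTTTAC, a FOXO motif searched on both strands, occurred in the window of BCL2L11 and in none of the other 12, against 2.98% of all windows. CACGTG, an E-box that reads the same on both strands, occurred in the windows of BBC3 and BAX and in 2 of 5 windows of BID, against 6.34% of all windows. GGGCGG, the GC box searched on both strands, was present in 42.6% of all windows and in 10 of the 13, all but the second BMF window, that of BBC3 and 1 of BID. These matches describe the letters and not binding.

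MIR3190 is listed as an 80-base hairpin, shown because it is the whole of what the tables measure under that name. It lies at chr19:47226942-47227021 on the plus strand, and all 80 bases fall on an exon of BBC3 (chr19:47220822-47232766, minus strand), in no coding or UTR base of it. MIR3191, a 76-base hairpin on the same strand as BBC3, is the reverse complement of bases 3 to 78 of MIR3190. Mature microRNAs carry no poly(A) tail, so a library of polyadenylated RNA does not measure them. The hairpin has the mature miR-3190-3p in capitals, and the mature sequences from RefSeq (GRCh38.p14) have the seed, bases 2 to 8, in capitals.
MIR3190 hairpin: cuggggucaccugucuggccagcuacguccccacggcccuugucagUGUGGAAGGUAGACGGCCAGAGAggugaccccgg
miR-3190-3p: uGUGGAAGguagacggccagaga
miR-3191-5p: cUCUCUGGccgucuaccuucca
The seeds differ, although the transcripts overlap.

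All 8 coding members were listed higher in parental decitabine replicate 3 than in any of the other 11 libraries, and both opposite-strand features were listed at 0 there. Of protein-coding features that averaged 1 TPM or more over all 12 libraries, 71.7% were likewise highest in replicate 3, and the count of 8 of 8 is read against that share. That average includes replicate 3, so a feature could enter through a high value there alone, which can raise the share. In replicate 3 the order was BAX (125 TPM), BCL2L11 (100.2), PMAIP1 (75.7), BMF (74.4), HRK (43.8), BAK1 (36.2), BID (26.4) and BBC3 (16.3), from 1 library and so without an error. In the other 11 the medians were 8.08 TPM for BCL2L11, 4.43 for BID, 4.02 for PMAIP1, 2.67 for BAX, 1.68 for HRK and 0 for BMF, BBC3 and BAK1. These low levels overlap from gene to gene. BAX stood furthest from the rest, at 16.6 times its highest value in the other 11 (7.52 TPM). BAK1 stood nearest, at 1.72 times its highest value (21.04 TPM). BMF was at 0 in 7 of the 11, BBC3 in 6 and BAK1 in 9. The values below are those of the named features as listed, and for the coding members they rest on few TPM.

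**Figure D2:**
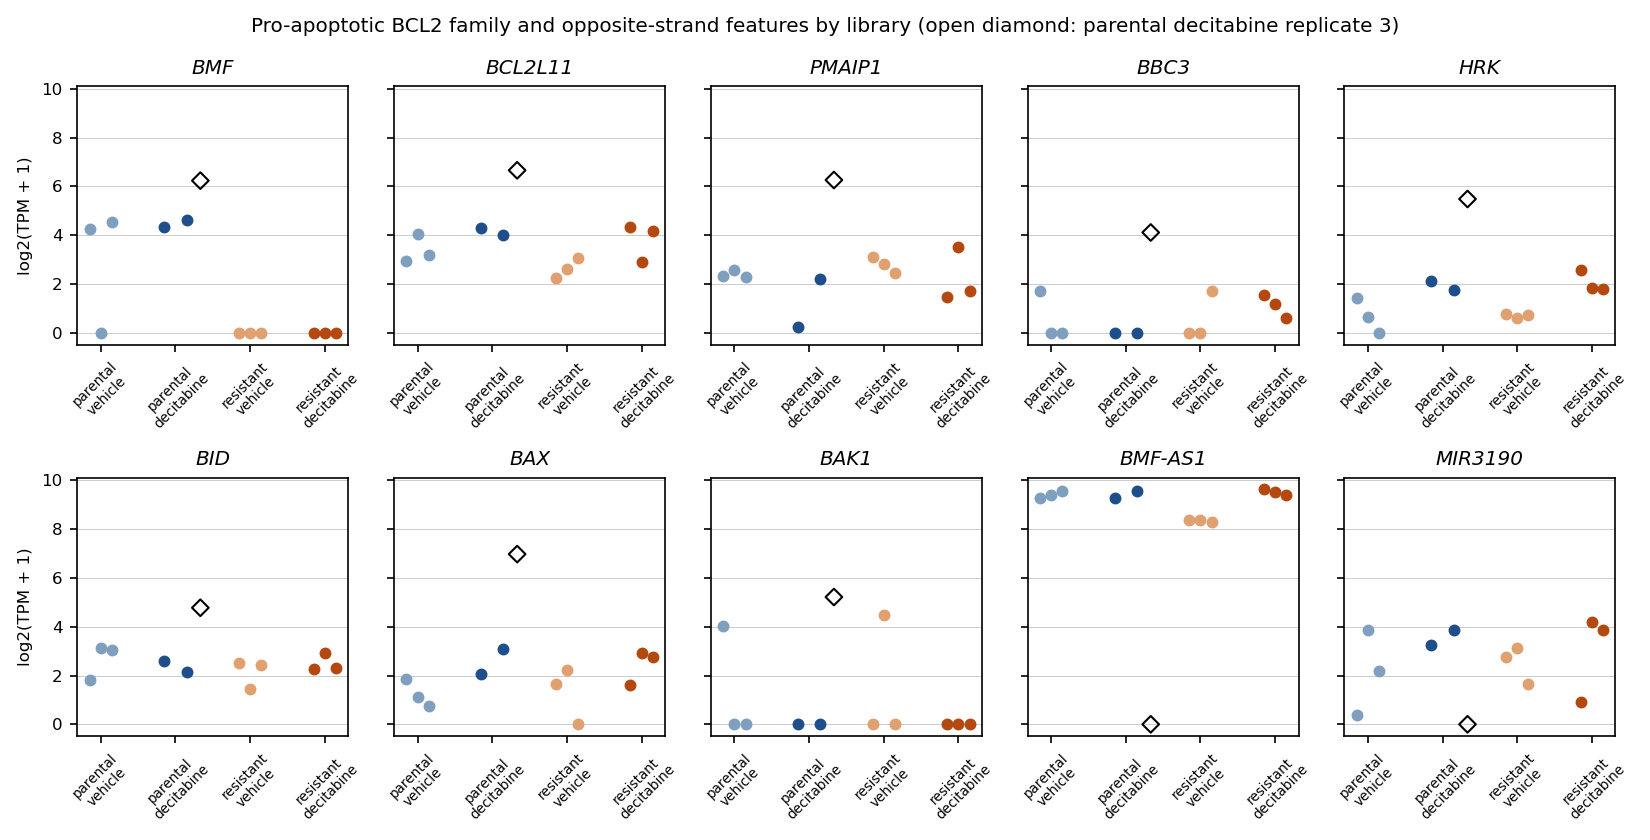
Level of each of the 10 features in each library on the log2(TPM + 1) scale, by group, with parental decitabine replicate 3 as an open diamond. Coding members are highest in replicate 3 (BAX 125 TPM), while BMF-AS1 is at 0 there and at 316 to 794 TPM in the other 11 libraries.

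In all 4 pairs of opposite-strand features the member was above its partner in replicate 3. BMF, BCL2L11 and BAK1 were below theirs in each of the other 11 libraries, and BBC3 was below MIR3190 in 8 of them. BMF-AS1 was at 0 in replicate 3, where BMF was at 74.4 TPM, and at 316 to 794 TPM in the 11, where BMF was at 0 to 23.6 TPM. Of 426 features named -AS1 that averaged 1 TPM or more over all 12 libraries, 50.9% were likewise lower in replicate 3 than in every other library. BCL2L11 (chr2:111119378-111168447, plus strand) shares 727 exonic bases, 10.9% of its own and all in UTR, with MIR4435-2HG, a long non-coding host gene on the minus strand. These bases are only 5.55% of the exonic bases of MIR4435-2HG, so its value mostly reflects sequence that is not opposite BCL2L11. MIR4435-2HG had 18.9 TPM in replicate 3, against 302 to 576 TPM elsewhere. BAK1 (chr6:33572547-33580293, minus strand) shares 91 coding bases with the transcribed pseudogene GGNBP1, only 5.24% of the exonic bases of GGNBP1. GGNBP1 had 0.106 TPM in replicate 3, against 49.5 to 78 TPM elsewhere. PMAIP1 (chr18:59899948-59904306, plus strand), HRK (chr12:116856144-116881441, minus strand), BID (chr22:17734138-17774770, minus strand) and BAX (chr19:48954815-48961798, plus strand) have no annotated exon opposite them. In the 4 parental libraries where BMF and BMF-AS1 were both above 0, BMF-AS1 was 31.6 to 34.4 times as high as BMF.

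**Figure D3:**
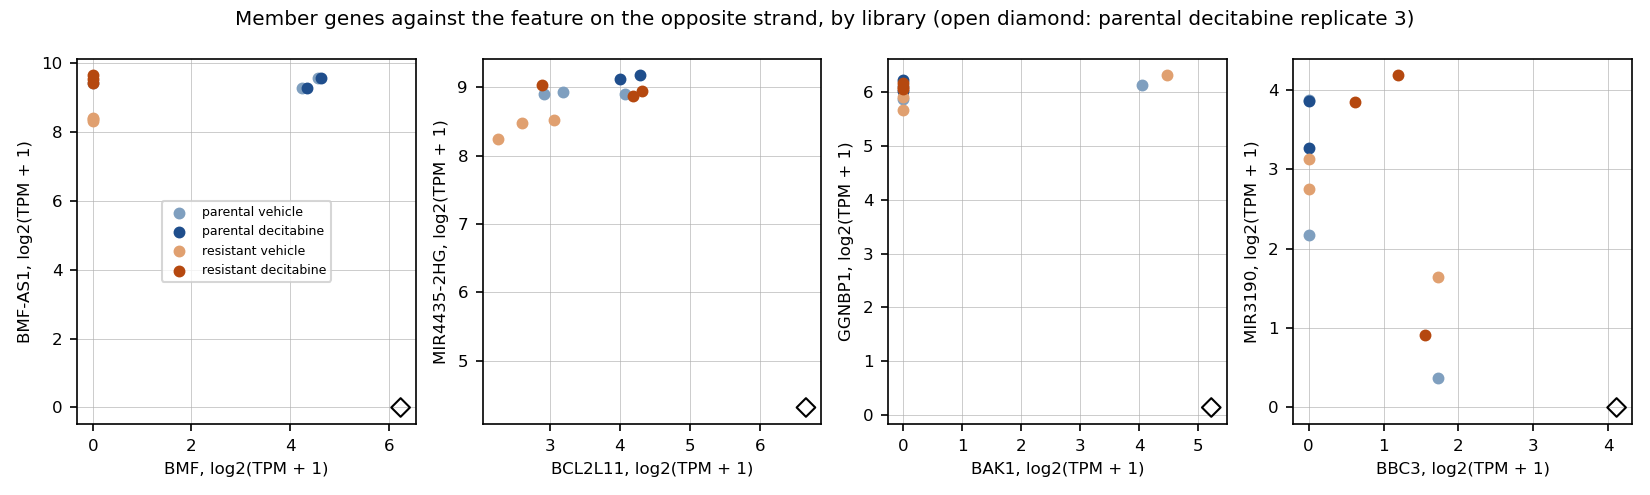
Each panel plots a member gene (horizontal) against the feature on its opposite strand (vertical), both as log2(TPM + 1), with 1 point for each library and parental decitabine replicate 3 as an open diamond. Replicate 3 lies at the lower right in all 4 panels, and the other libraries lie at lower values of the member gene.

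BMF-AS1 was the member with the highest level in the 11 libraries and the only one that passed the test in any comparison. It was lower in resistant than in parental cells under vehicle, rose with decitabine in resistant cells and had no detected change in parental cells. In parental vehicle libraries 1, 2 and 3 it was at 619, 678 and 753 TPM. Parental decitabine libraries 1 and 2 had 617 and 746 TPM, overlapping the vehicle libraries. Resistant vehicle libraries a, b and c had 335, 330.5 and 316 TPM, all below every parental library but replicate 3. Resistant decitabine libraries a, b and c had 794, 740.3 and 679.7 TPM, all above the resistant vehicle libraries and overlapping the parental range. Means were 683 ± 67.1 TPM (SD, n = 3) in parental vehicle, 327 ± 9.83 (n = 3) in resistant vehicle and 738 ± 57.1 (n = 3) in resistant decitabine.

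**Figure D4:**
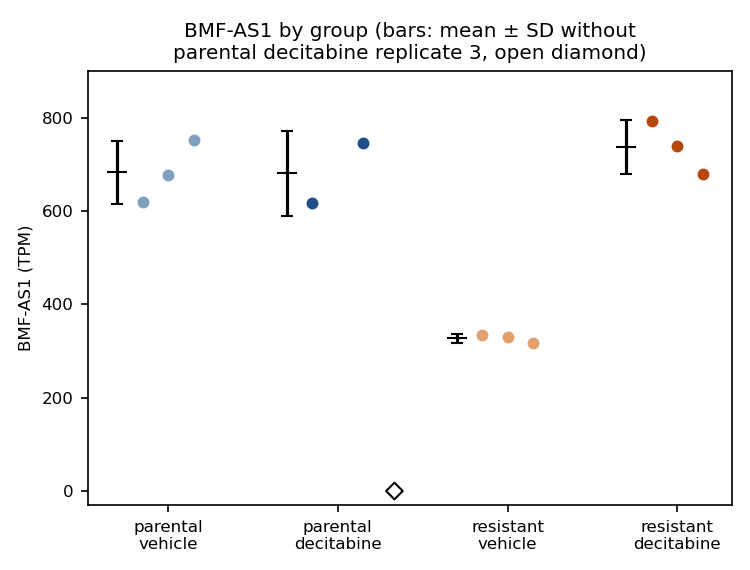
BMF-AS1 in TPM by group, 1 point per library, with mean ± SD as bars. Resistant vehicle libraries sit at 316 to 335 TPM, below the 617 to 794 TPM of the other groups, and parental decitabine replicate 3 (open diamond, at 0) is left out of the bars.

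Tests used limma on log2(TPM + 1) over all features that averaged 1 TPM or more in the libraries fitted, and a feature was called at a Benjamini-Hochberg adjusted p under 0.05. In resistant cells decitabine raised BMF-AS1 2.25-fold (log2 fold change 1.17, SE 0.10, adjusted p = 0.0084), with 3 of 3 decitabine libraries above all vehicle libraries. It was the 1 member called of 9 tested (BMF was too low), against 3.59% of all 8579 features, 2.83% of them higher. Under vehicle it was lower in resistant cells, at 0.482 times the parental level (log2 fold change -1.05, SE 0.10, adjusted p = 0.0119). That was 1 of 8 members tested (BBC3 and HRK were too low), against 2.8% of 7761 features, 1.07% of them lower. The lines come from separate tables, each library scaled on its own over the same features. Groups without overlap made up 28.1% of features there, 10.2% in the lower direction, and 1 of 8 members, BMF-AS1. In parental cells the log2 fold change with decitabine was -0.01 (95% interval -0.36 to 0.35, limma adjusted p = 0.985; 0.012 under quantile scaling), and of 9 members (BBC3 was too low) 0 were called and 0 had an unadjusted p under 0.05, against 1.86% of 8122 features called. The difference of the 2 responses was itself called (log2 1.17, SE 0.16, adjusted p = 0.0346), 1 of 9 members (all but BBC3) against 0.364% of 8505 features, 0.188% of them higher. In bulk RNA, fewer cells that carry a transcript and less of it per cell cannot be told apart.

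The 2 calls that set the lines against each other rested on narrow margins. The lower level under vehicle lost its call without parental vehicle 2 (limma adjusted p = 0.0575) or resistant vehicle c (0.0563), and ranged from 0.00524 to 0.177 over its alternatives, the highest with a replicate block. The difference of the responses lost its call without parental vehicle 2 (0.0735) or 3 (0.0715), parental decitabine 1 (0.0695), resistant vehicle b (0.0503) or c (0.0714), or resistant decitabine a (0.0521), b (0.0512) or c (0.0511). With replicate 3 included its value was 4.31 (limma adjusted p = 0.709), and with a replicate block 1.10 (0.185). The rise in resistant cells kept its call in 12 of 13 alternatives, at an adjusted p of 0.00739 to 0.0379. It was not called with the replicate number as a block (adjusted p = 0.0797). The median log2 fold change with decitabine over all features was 0.21 in each line. Under quantile and median-ratio scaling it was -0.06 and 0.10 in resistant cells, where BMF-AS1 stood at 1.25 and 1.04, and -0.02 and 0.06 in parental cells. Between lines it was 0.11, and 0.02 and -0.02 under those scalings, where BMF-AS1 stood at -1.21 and -1.21. Of called features, 78.9% were higher with decitabine in resistant cells and 66.8% and 64.5% under those scalings; in parental cells these shares were 74.2%, 61.5% and 55.03%, and between lines 61.8%, 46.7% and 45.03%. Features above 0 also rose in number with the drug in resistant cells, from 9695 to 9927 under vehicle to 12590 to 13130. They rose in parental cells too, from 10228 to 10426 under vehicle to 11720 and 11230 in decitabine 1 and 2. The part of this shift in the result was not tested. Since every exonic base of BMF-AS1 is also opposite BMF, RNA of the antisense feature and of the BMF 3′ UTR assigned to the other strand cannot be told apart in these values.

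BMF itself encodes a BH3-only protein that is held at the cytoskeleton through a dynein light chain and freed when cells lose attachment or are stressed. It was at 18, 0 and 22.6 TPM in parental vehicle libraries 1, 2 and 3 and at 19.3 and 23.6 TPM in parental decitabine 1 and 2. All 6 resistant libraries, with and without the drug, were listed at 0. Parental and resistant libraries thus overlapped only through parental vehicle 2. The limma adjusted p under vehicle was 0.278, and 0.0236 without that library, with a range of 0.0236 to 0.535 over its alternatives, and no fold is given against a group at 0. In parental cells decitabine and vehicle libraries overlapped (adjusted p = 0.628). BMF was not tested for decitabine in resistant cells, as its mean there was 0. BMF at 0 and BMF-AS1 at 679.7 to 794 TPM in the same resistant decitabine libraries are values of opposite strands of 1 locus.

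BCL2L11 encodes BIM, a BH3-only protein that binds all the main survival proteins and is a chief partner of BCL2 in lymphoid cells. Its parental vehicle values were 6.59, 15.8 and 8.08 TPM, and parental decitabine 1 and 2 had 18.6 and 15.04 TPM, which overlap through vehicle 2. Resistant vehicle libraries had 3.79, 5.06 and 7.34 TPM and resistant decitabine libraries 18.9, 6.43 and 17.2 TPM, overlapping through decitabine b. The log2 fold change was 1.16 in resistant cells (SE 0.47, limma adjusted p = 0.248) and 0.75 in parental cells (SE 0.41, adjusted p = 0.399), neither called. MIR4435-2HG, with only 5.55% of its exonic bases opposite BCL2L11, showed the same order of group means and was not called on TPM as deposited. It was at 476, 476 and 489 TPM in parental vehicle, 576 and 554 in parental decitabine 1 and 2, 302, 355 and 366 in resistant vehicle, and 489, 524 and 466 in resistant decitabine. Resistant decitabine libraries were all above resistant vehicle (log2 fold change 0.53, SE 0.12, adjusted p = 0.0767), and resistant vehicle libraries all below parental vehicle (-0.50, SE 0.10, adjusted p = 0.0751). This last difference was called under quantile (-0.64, adjusted p = 0.0397) and median-ratio scaling (-0.66, adjusted p = 0.0493). Beyond BMF-AS1, no member of the list was called in any comparison: adjusted p was 0.296 to 0.79 in parental cells, 0.112 to 0.813 in resistant cells, 0.278 to 0.987 between lines and 0.781 to 0.989 for the difference. In resistant cells 3 of 9 members (BMF-AS1, HRK and BCL2L11) were at an unadjusted p under 0.05, against 19.8% of all features, and in the other comparisons no member but BMF-AS1 was.

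HRK encodes Harakiri, a BH3-only protein that binds BCL2 and BCL-XL and is best known from neurons. Among coding members it had the lowest adjusted p in resistant cells. Its values were 0.695, 0.533 and 0.649 TPM under vehicle and 5.01, 2.57 and 2.46 TPM under decitabine, so all 3 decitabine libraries lay above all vehicle libraries (log2 fold change 1.37, SE 0.36, limma adjusted p = 0.112). Under quantile scaling that value was 0.69 (adjusted p = 0.383). Parental cells had 1.68, 0.581 and 0 TPM under vehicle and 3.33 and 2.35 TPM in decitabine 1 and 2, again without overlap (log2 fold change 1.24, SE 0.53, adjusted p = 0.319). The log2 scale with 1 TPM added understates changes at such levels. Groups without overlap were common, 28.4% of features in resistant cells and 39.4% in parental cells, and members with it numbered 2 of 9 (both higher, against 19.8% of features) and 3 of 9 (2 higher, against 27.9%, and 1 lower, against 11.6%). The difference of the 2 HRK responses was 0.14 (95% interval -1.24 to 1.51, adjusted p = 0.96; -0.26 under quantile scaling).

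PMAIP1 encodes NOXA, which binds mainly MCL1. Parental vehicle libraries had 4.02, 4.999 and 3.84 TPM and parental decitabine 1 and 2 had 0.195 and 3.61 TPM, below vehicle in both but far apart from each other (log2 fold change -1.17, SE 0.65, limma adjusted p = 0.409). Resistant vehicle libraries had 7.61, 6.12 and 4.50 TPM. Resistant decitabine libraries had 1.77, 10.6 and 2.29 TPM, on both sides of the vehicle range (log2 fold change -0.56, SE 0.60, adjusted p = 0.633).

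BBC3 encodes PUMA, a p53 target that binds all the main survival proteins. It was above 0 in only 1 of 3 parental vehicle libraries (2.30 TPM in replicate 1), at 0 in parental decitabine 1 and 2, and at 2.32 TPM in resistant vehicle c alone of that group. All 3 resistant decitabine libraries were above 0, with 1.93, 1.29 and 0.532 TPM, and overlapped vehicle (log2 fold change 0.54, and -0.01 under quantile scaling; limma adjusted p = 0.645). BBC3 was tested only in resistant cells, since its mean was under 1 TPM in the other fits. MIR3190 ranged widely within every group. It was at 0.293, 13.6 and 3.53 TPM in parental vehicle, 8.60 and 13.5 in parental decitabine 1 and 2, 5.74, 7.78 and 2.13 in resistant vehicle, and 0.879, 17.2 and 13.4 in resistant decitabine. No comparison of MIR3190 was called (limma adjusted p = 0.523 in parental and 0.813 in resistant cells). The largest value of BBC3 in the 11 was thus below most values of the feature opposite it.

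BID encodes a BH3-only protein that caspase-8 cleaves, which joins death receptors to mitochondria. BID had 2.54, 7.79 and 7.16 TPM in parental vehicle and 5.13 and 3.36 in parental decitabine 1 and 2. In resistant cells it had 4.72, 1.74 and 4.43 TPM under vehicle and 3.88, 6.54 and 3.99 under decitabine. The groups overlapped in all comparisons of BID, and its log2 fold changes were -0.29 (SE 0.51) in parental and 0.37 (SE 0.41; -0.10 under quantile scaling) in resistant cells, neither called by limma.

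The effectors were at the limit of what the 11 libraries listed. BAX had 2.67, 1.19 and 0.674 TPM in parental vehicle and 3.19 and 7.52 in parental decitabine 1 and 2, which did not overlap (log2 fold change 1.331, SE 0.54, limma adjusted p = 0.296). In resistant cells BAX had 2.11, 3.65 and 0 TPM under vehicle and 2.03, 6.61 and 5.69 under decitabine, which overlapped (log2 fold change 1.14, SE 0.70, adjusted p = 0.41). BAK1 was above 0 in 2 of the 11 libraries, parental vehicle 1 (15.6 TPM) and resistant vehicle b (21.04 TPM), and at 0 in all 5 decitabine libraries other than replicate 3. GGNBP1, opposite BAK1, was at 63.3 and 73.9 TPM in parental decitabine 1 and 2 against 57.4 to 69.01 under vehicle, with no call in any comparison (limma adjusted p = 0.715 to 0.961). With BAK1 above 0 in 2 of 11 libraries, each fitted difference rests on single libraries, and no fold is given against a group at 0.

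**Figure D5:**
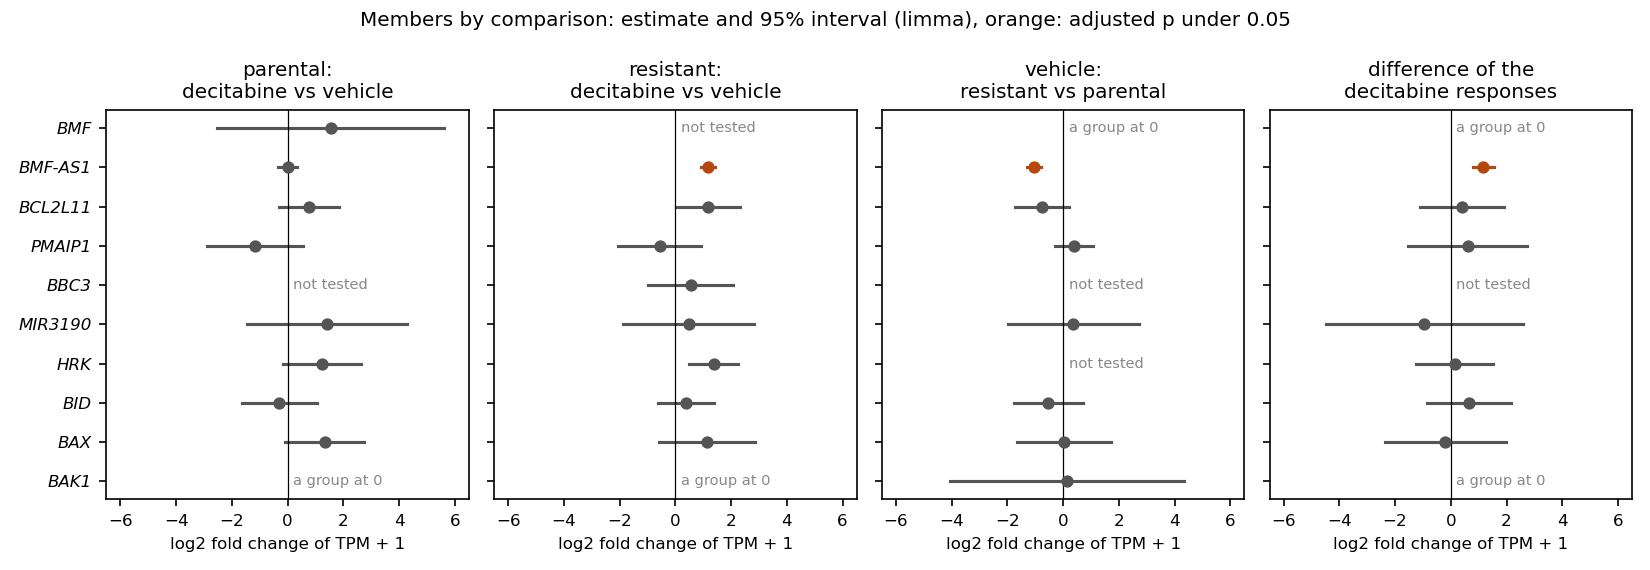
Log2 fold change on the TPM + 1 scale (points) with 95% intervals (lines) for each member in the 4 comparisons, from limma without parental decitabine replicate 3. Orange marks adjusted p under 0.05, which BMF-AS1 reached in 3 of 4 panels (1.17, -1.05 and 1.17), and features not tested or with a group listed at 0 are named as such.

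Most of the other apoptosis genes were too low in the 11 libraries to be tested. Of 44 further genes in 8 lists (anti-apoptotic and further pro-apoptotic BCL2 family genes, the apoptosome and executioner caspases, initiators of BID cleavage, mitochondrial release and outer membrane, inhibitors of apoptosis, dynein light chains that hold BMF and BIM, and transcription factors that act on BH3-only genes), 17 were tested in parental and 18 in resistant cells. In resistant cells 1 of 18 was called higher and 0 lower with decitabine, against 3.59% of all features called, 2.83% of them higher. There 5 of 18 were at an unadjusted p under 0.05 in limma, against 19.8% of all features. None passed in parental cells: 0 calls against 1.86% of all features, with 2 of 17 genes under 0.05 in limma before adjustment, against 18%. Between lines 0 of 15 were called by limma (5 at an unadjusted p under 0.05, against 19.3% of all features). For the difference of responses 0 of 16 were called (2 at an unadjusted p under 0.05, against 10.1%). The median log2 fold change of the members tested was 0.75 in parental and 0.54 in resistant cells, against 0.21 for all features in both, and 5 of 9 and 7 of 9 were above 0, against 62.4% and 61.8% of all features. Under quantile scaling the members' medians were 0.51 (6 of 9 above 0) and 0.03 (5 of 9), against -0.02 and -0.06 for all features. Between lines 4 of 8 members were above 0, against 56.5%, and for the difference 5 of 9, against 49.9%.

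The call was BCL2, the target of venetoclax. Resistant vehicle libraries had 37.6, 39.4 and 34.5 TPM and resistant decitabine libraries 75.8, 78.7 and 72.1 TPM, without overlap (log2 fold change 1.01, SE 0.13, limma adjusted p = 0.0247). BCL2 lost this call when any 1 of the 6 libraries was left out (adjusted p = 0.0529 to 0.0816). Parental vehicle libraries had 53.8, 55.9 and 52.8 TPM of BCL2 and parental decitabine 1 and 2 had 75.0 and 88.6 TPM, without overlap and not called (log2 fold change 0.58, SE 0.13, limma adjusted p = 0.12), and the difference of the responses was not called either (0.42, SE 0.18, adjusted p = 0.463). BCL2 and BMF-AS1 thus both rose with decitabine in resistant cells, by 1.01 and 1.17 on the log2 scale. Of the other anti-apoptotic genes tested in resistant cells, BCL2L1, the gene of BCL-XL, was at 29.3, 29.6 and 25.0 TPM under vehicle and 16.4, 22.4 and 20.5 TPM under decitabine, all lower and not called (log2 fold change -0.49, SE 0.19, limma adjusted p = 0.243). BCL2L2 overlapped between the groups (-0.25, SE 0.25, adjusted p = 0.605). MCL1 was at 0.9747, 1.70 and 0.277 TPM under vehicle and 1.99, 2.54 and 3.10 under decitabine in resistant cells, without overlap and not called (log2 fold change 0.89, SE 0.40, adjusted p = 0.282). FOXO1, a transcription factor known to act on the genes of BIM and PUMA, was at 0.825, 1.18 and 0.479 TPM in resistant vehicle and 4.95, 6.07 and 3.22 in resistant decitabine libraries, without overlap and not called (log2 fold change 1.64, SE 0.36, adjusted p = 0.0728). VDAC2, an outer membrane channel that holds BAK1, was at 4.33, 1.04 and 2.42 TPM in parental and 10.8, 8.55 and 12.3 TPM in resistant vehicle libraries, not called either (log2 fold change 1.78, SE 0.41, adjusted p = 0.0896). Of the dynein light chain genes, DYNLL1 was at 4.24, 4.51 and 2.35 TPM in parental and 7.52, 7.01 and 15.3 TPM in resistant vehicle libraries. These did not overlap, and the difference was not called (log2 fold change 1.18, SE 0.39, limma adjusted p = 0.186). DYNLL2, whose product holds BMF, was at 0 to 0.142 TPM in the 11 libraries. In replicate 3 DYNLL1 was at 328 TPM and DYNLL2 at 11.9 TPM. That library had BCL2 at 169.9 TPM, BCL2L1 at 90.28, BCL2L2 at 1.596, MCL1 at 56.25, FOXO1 at 72.48 and VDAC2 at 95.62. The low values of MCL1, FOXO1 and VDAC2 in the other libraries are therefore those of the features as listed.

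Likeness in pattern was ranked among 3369 features averaging 5 TPM or more, with clone-named features left out beforehand. Those most like BMF-AS1 across the 11 libraries by Pearson correlation of log2(TPM + 1) were PINK1 (r = 0.967), ACAT1 (0.951), ABI2 (0.941), PPP1R1A (0.937) and GALNT2 (0.923). All 5 were lowest in resistant vehicle, which follows from the choice, since BMF-AS1 was itself lowest there. PINK1, a mitochondrial quality-control kinase, was at 5.46 to 7.33 TPM there and at 20.5 to 24.3, 26.02 to 30.7 and 26.2 to 35.2 TPM in parental vehicle, parental decitabine and resistant decitabine libraries. ACAT1, a mitochondrial thiolase, was at 0 to 3.61 TPM in resistant vehicle and at 56.9 to 105 TPM in the other 3 groups. In replicate 3 PINK1 was at 12.3 TPM, ACAT1 at 63.8, ABI2 at 13.4 and GALNT2 at 27 TPM, whereas PPP1R1A was at 0 like BMF-AS1. The features most like BMF were GLRX2 (r = 0.941), LINC01521 (0.89), BTBD6 (0.874), C4orf54 (0.862) and TOMM40P4 (0.861), with BMF at 0 in 7 of the 11 points. GLRX2, a glutaredoxin gene, was at 8.22 to 16.5 TPM in parental and 6.11 to 8.41 TPM in resistant libraries. These correlations describe 11 libraries that share their groups, are the highest of many, and come with no test.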

How the data were processed

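The authors deposited 1 table per line, with no unit in the header. The deposited values were read as TPM, scaled to 1000000 in every column by the authors; per the submitters' processing notes HISAT2, StringTie, DESeq2 and build hg38 were used, and for versions, roles and strand handling the sources used here give nothing. Features were matched by name, 59490 of which occur once. The identifiers in the parental table were not used, since those of 2 members differ there from GENCODE 29, the source of positions and exons (GRCh38). Resistant columns could be matched to groups only.

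Tests used limma 3.58.1 with a mean-variance trend (R 4.3.3) on log2(TPM + 1), for features averaging 1 TPM or more in the libraries fitted, with p-values adjusted over all of them. The script was tested on simulated data. The members and lists were chosen with earlier results of these data known. Named were all members, the features opposite them, called genes of the lists with up to 3 others per list, and the 5 features most alike, of which the text describes some. The main tests fitted no pairing by replicate number. Correlations between same-numbered libraries, given below, were low, and whether those libraries shared a culture or batch was not tested. Alternatives were quantile or median-ratio scaling, no filter on low values, a filter at 5 TPM, a pseudocount of 0.1 TPM, a threshold of 0.01, a replicate block, replicate 3 included, and each library left out.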

Additional observations from a re-analysis of the deposited data

Results flagged for a closer look

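The decitabine response of BMF-AS1 differed between the lines by 1.17 on the log2 scale (limma adjusted p = 0.0346): resistant cells rose in 3 of 3 libraries from 327 to 738 TPM on average, and parental cells had 683 TPM under vehicle and 681 TPM in decitabine replicates 1 and 2. Of all 8505 features, 0.364% were called. The call for BMF-AS1 was lost in 8 of 11 fits with 1 library left out, and also with a replicate block or with replicate 3 included.

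Parental decitabine replicate 3, which the tests leave out, listed all 8 coding members above every parental vehicle library: BAX at 125 TPM, BCL2L11 at 100.2, PMAIP1 at 75.7, BMF at 74.4, HRK at 43.8, BAK1 at 36.2, BID at 26.4 and BBC3 at 16.3. It listed BMF-AS1 and MIR3190 at 0. Of 8474 protein-coding features averaging 1 TPM or more over all 12 libraries, replicate 3 included, 71.7% were above all 11 other libraries there. The count of 8 is read against that share, which features that enter through replicate 3 alone can raise. The share of protein-coding features in that library (89.4% of TPM) moved with these values, and its part in them was not tested.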

How the results depend on the processing

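Depth is unknown from TPM, which limits what an exact 0 or a low value can show. Of 662 alternative values for 47 gene results, 54 changed sign, 0 of them among the 4 called results, and 3 gained a call. The 4 called results had 58 alternative values, and 26 of these lost the call. Without the filter, 35 features were called in parental cells, 73 in resistant cells, 68 between lines and 7 for the difference of responses (main counts 151, 308, 217 and 31), and at an adjusted p under 0.01 the counts were 23, 39, 37 and 6. Both settings left 0 members called for the difference, and the stricter threshold 0 between lines. In resistant cells quantile scaling gave 196 calls and a mean of at least 5 TPM 194. With parental decitabine replicate 3 included, 0 features were called in parental cells and 1 for the difference, with 0 members in both.

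Same-numbered libraries deviated together only weakly or not at all. The correlations of the 3 pairs were -0.0035, 0.016 and 0.022 in parental cells, -0.0060, 0.031 and 0.036 in resistant cells and -0.00034, 0.018 and 0.037 between the vehicle groups. In these comparisons 3, 3 and 4 of 6 libraries correlated best with their own number. The correlations and count in parental cells include decitabine replicate 3. Without it, the pairs numbered 1 and 2 had -0.0089 and -0.012. Whether same-numbered libraries shared a culture or batch was not tested. The replicate block, by the numbers in the column names, left 0 calls in parental cells, 2 in resistant cells, 4 between lines and 1 for the difference, with 0 members called in each. BMF-AS1 then had an adjusted p of 0.0797 in resistant cells, 0.177 between lines and 0.185 for the difference, and BCL2 0.142 in resistant cells. Under the block BMF-AS1 was at 0.067 and GGNBP1 at -0.00058 in parental cells, and the difference was 0.060 for BAX and 0.54 for BAK1. The last 2 comparisons with a block were added after seeing the data.

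Leaving out 1 library gave 14, 23 and 47 calls in parental cells without vehicle 1, 2 and 3, and 231 and 264 without decitabine 1 and 2. In resistant cells, omitting vehicle a gave 197 calls, b 137 and c 100, and omitting decitabine a gave 104, b 113 and c 90. Between lines they were 63, 58 and 67 without parental vehicle 1, 2 and 3, and omitting resistant vehicle a gave 191, b 125 and c 67. For the difference they ran from 12 (without parental vehicle 3) to 47 (without resistant vehicle a), and were also moved by over 1.5 times without parental vehicle 1 (17) or 2 (13), resistant vehicle b (19) or c (14), or resistant decitabine c (14). Members called were 0 to 1 between lines and for the difference; the one called between lines without parental vehicle 2 was BMF in place of BMF-AS1.

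Signs changed only for values not called. Under quantile scaling the parental value was 0.012 for BMF-AS1 and -0.070 for GGNBP1, the resistant value -0.0092 for BBC3 and -0.098 for BID, and the difference -0.26 for HRK. Median-ratio scaling gave -0.10 for GGNBP1 in parental cells and -0.056 for BAX between lines. A pseudocount of 0.1 TPM gave -0.58 for BAX between lines, and differences of -0.37 for HRK and 0.38 for BAX. Replicate 3 included gave parental values of 0.51 for PMAIP1, 0.51 for BID, 0.39 for BAK1, -1.91 for GGNBP1 and -1.38 for MIR4435-2HG, and differences of -0.43 for BCL2L11, -1.07 for PMAIP1, 0.24 for MIR3190, -1.05 for HRK and -0.14 for BID. With 1 library left out, values in parental cells ran from -0.14 to 0.13 for BMF-AS1 and -0.027 to 0.19 for GGNBP1. Those in resistant cells ran from -0.13 to 1.51 for MIR3190 and -0.0083 to 0.31 for GGNBP1. Those between lines ran from -0.51 to 1.24 for MIR3190, -0.43 to 0.68 for BAX, -1.35 to 1.49 for BAK1 and -0.25 to 0.073 for GGNBP1. Those for the difference ran from -0.37 to 1.58 for PMAIP1, -1.81 to 0.086 for MIR3190, -0.23 to 0.48 for HRK, -0.83 to 0.32 for BAX, -1.49 to 1.35 for BAK1 and -0.091 to 0.23 for GGNBP1. Where a group has BAK1 at 0 its value depends on the pseudocount and is no fold. The cause was not tested.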
